A study of Mus musculus with 16 samples.

Results

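Lin28a, Lin28b, Trim71, Hmga1, Hmga2 and Igf2bp1 are genes of the Lin28 and let-7 axis, a set of regulators that change with developmental time. They were taken by gene symbol, and all 6 were found among the 15876 genes measured, each in 1 row (ENSMUSG00000050966, ENSMUSG00000063804, ENSMUSG00000079259, ENSMUSG00000046711, ENSMUSG00000056758 and ENSMUSG00000013415 in that order). LIN28 proteins bind RNA and block the maturation of let-7 microRNAs, and let-7 in turn represses messages that carry its seed match, among them those of Lin28 itself, Trim71, Hmga2 and Igf2bp1. The axis is known for high Lin28 in early embryos and for a switch to let-7 as tissues differentiate. In the neural tube, Lin28 and Trim71 are known for keeping progenitors proliferating.

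The series profiled total RNA from regions of CD1 mouse embryos at the embryonic days E8.5, E9.5 and E10.5, in 16 libraries. The 4 libraries at E8.5 were mesoderm, and neural epithelium of the caudal brain, the floor plate and outside the floor plate. At E9.5 there were 4 libraries, of cranial mesenchyme, mandibular arch, maxillary arch and epidermal ectoderm. The 8 libraries at E10.5 were the lateral nasal prominence with the mandibular and maxillary arches (called facial regions), 3 of neural epithelium (lateral prominence, central and dorsal control), the olfactory pit, and one labelled medial nasal prominence. All embryos were of 1 outbred strain, and the labels give no genotype and no treatment. Each library is 1 region at 1 stage, so a spread within a group is a spread between regions, and the labels do not say how many embryos were pooled.

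The let-7 family shows why these genes are set together. Of 11 mature mouse let-7 family sequences in RefSeq, 10 have the same seed, bases 2 to 8, shown in capitals. The exception is let-7j, whose seed ends in another base.
let-7a: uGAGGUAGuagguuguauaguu
let-7g: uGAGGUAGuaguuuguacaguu
miR-98: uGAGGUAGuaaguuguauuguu
let-7j: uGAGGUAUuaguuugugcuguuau

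The perfect match to the shared seed, CTACCTC, was searched on the message strand of the longest annotated 3′ UTR of each gene (GENCODE M21). All 6 genes held it, with 19 matches in all, of which 11 are followed by an A. Trim71, Lin28b, Hmga2 and Igf2bp1 had 4 matches each, Lin28a had 2 and Hmga1 had 1. Of 12097 measured genes with a 3′ UTR, 10.61% held at least 1 match and 0.207% held at least 3. UTR length adds to such counts. Among genes with a 3′ UTR at least as long as that of Hmga2 (3014 bases), 0.398% had as many matches, and for Lin28b (4445 bases), Trim71 (5512 bases) and Igf2bp1 (6337 bases) the shares were 0.753%, 0.948% and 1.141%. For Lin28a (2775 bases) the share was 4.907% and for Hmga1 (1183 bases) 16.831%. A match is a stretch of letters and was not tested as a working site.

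The first match after the stop codon of each gene is printed with the match in capitals, as an example of the letters with which a let-7 seed could pair.
Lin28a: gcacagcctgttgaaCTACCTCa
Lin28b: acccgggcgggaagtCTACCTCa
Trim71: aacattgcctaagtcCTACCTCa
Hmga1: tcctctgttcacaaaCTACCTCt
Hmga2: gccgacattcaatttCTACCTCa
Igf2bp1: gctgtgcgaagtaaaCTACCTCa
In the GRCm38 build these windows lie at chr4:134005189-134005211 (Lin28a), chr10:45381022-45381044 (Lin28b), chr9:114512472-114512494 (Trim71), chr17:27563277-27563299 (Hmga1), chr10:120364224-120364246 (Hmga2) and chr11:95961778-95961800 (Igf2bp1). Hmga1 is on the plus strand and the other 5 genes are on the minus strand. The first base of the match in capitals is base 36 (Lin28b) to base 1715 (Igf2bp1) of the 3′ UTR, and each window starts before it. The deposited values were made on mm9, and the GRCm38 positions were used only for these sequences.

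The deposited values are ratios, each gene divided by its own median over the 16 libraries, with low values first raised to a floor. They compare libraries for 1 gene and do not compare genes. A level here is the value in a library over the gene's smallest value in any library, so 1 marks the lowest library. Libraries also differed as a whole. The median shift of a library over 7082 genes whose lowest value no 2 libraries share ran from -0.07 to -0.82 (log2) in 6 of the 8 E10.5 libraries, against -0.004 to 0.40 in the 8 earlier ones. The library labelled medial nasal prominence (0.26) and the olfactory pit (0.21) lay with the earlier libraries. The same 6 libraries had 63.8% to 81.5% of genes with a shared lowest value at that value, against 54.0% to 59.1% in the earlier libraries. Results are therefore shown on both scales, the deposited values and the values after each library's shift was taken out (relative to the median gene). Exact depth is unknown (the labels state above 40000000 reads), and no counting interval was computed. The library labelled medial nasal prominence had 9 of 10 facial mesenchyme markers at their lowest value and a mean log2 level of 3.31 over 8 neural epithelium markers, above the 2.83 to 3.18 of the 3 E10.5 neural libraries, so it goes against its label and stands on its own below. In whole-tissue RNA, fewer cells of a type and less RNA per cell cannot be told apart.

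Lin28a and Lin28b encode the paired RNA-binding proteins that block let-7 maturation. Lin28a had levels of 44.0 in E8.5 mesoderm, and 47.1, 48.4 and 44.7 in E8.5 neural epithelium of caudal brain, floor plate and outside it. At E9.5 its levels were 7.05 in cranial mesenchyme, 28.9 in epidermal ectoderm, 23.8 in the mandibular and 14.0 in the maxillary arch. At E10.5 it was at its lowest value, 1, in the lateral nasal prominence, both arches, the olfactory pit and central neural epithelium, and at 2.25 in lateral prominence and 4.13 in dorsal control neural epithelium. The library labelled medial nasal prominence had 6.13. The 4 E8.5 libraries thus sat together in both tissues, the 4 E9.5 libraries spread widely, and no E10.5 library reached the lowest E9.5 library. By group the order was E8.5 neural epithelium (46.7 ± 1.9, SD, n = 3), E8.5 mesoderm, E9.5 epidermal ectoderm, E9.5 facial mesenchyme regions (14.9 ± 8.4, SD, n = 3), the library labelled medial nasal prominence, E10.5 neural epithelium (2.46 ± 1.58, SD, n = 3), and last the E10.5 facial regions and olfactory pit at the lowest value. The E8.5 mesoderm value lay just below the lowest E8.5 neural value, and the E9.5 ectoderm value lay above the range of the E9.5 facial mesenchyme regions (7.05 to 23.8). The ranges of the 2 lowest groups met at 1.

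Lin28b followed another course. Its levels were 9.57 in E8.5 mesoderm and 8.51, 10.1 and 8.59 in E8.5 neural epithelium (caudal brain, floor plate, outside the floor plate). At E9.5 they were 11.6 in cranial mesenchyme, 11.1 in epidermal ectoderm, 16.9 in the mandibular and 10.7 in the maxillary arch. All 4 E9.5 libraries were thus above all 4 E8.5 libraries as deposited. Relative to the median gene these stages overlapped, with a lowest E9.5 level of 4.75 and a highest E8.5 level of 4.87. At E10.5 the levels were 3.0 in the lateral nasal prominence, 1.74 in the mandibular and 1 in the maxillary arch, 3.24 in the olfactory pit, 2.85, 2.76 and 5.13 in lateral prominence, central and dorsal control neural epithelium, and 6.75 for the library labelled medial nasal prominence. Group means ran from 13.1 ± 3.4 in E9.5 facial mesenchyme regions through 9.08 ± 0.91 in E8.5 neural epithelium and 3.58 ± 1.34 in E10.5 neural epithelium to 1.91 ± 1.01 in E10.5 facial regions (SD, n = 3 each). The last pair differed by less than the sum of their SDs.

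Trim71, also called Lin41, encodes a ubiquitin ligase that binds and represses messages. Its level was 34.5 in E8.5 mesoderm, 36.0, 23.9 and 24.5 in E8.5 neural epithelium, 20.1 in E9.5 cranial mesenchyme, 23.3 in epidermal ectoderm, and 24.2 and 16.2 in the E9.5 mandibular and maxillary arches. At E10.5 it was 1 in the lateral nasal prominence and in the mandibular arch, 1.31 in the maxillary arch, 2.68 in the olfactory pit, 1.45, 2.13 and 3.19 in lateral prominence, central and dorsal control neural epithelium, and 5.11 for the library labelled medial nasal prominence. The gap between stages was wide, as the lowest earlier library stood 3.18-fold above the highest E10.5 library. The E8.5 and E9.5 values overlapped.

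Hmga1 and Hmga2 encode AT-hook proteins that bend DNA and loosen chromatin in growing embryonic cells. The level of Hmga1 was 18.9 in E8.5 mesoderm, 10.8, 13.2 and 9.66 in E8.5 neural epithelium, and between 12.8 and 16.5 in the 4 E9.5 libraries. At E10.5 it was 1.81, 1 and 1.35 in the lateral nasal prominence, mandibular and maxillary arches, 3.01, 2.42 and 3.76 in the 3 neural libraries, 7.83 in the olfactory pit and 10.03 for the library labelled medial nasal prominence. The neural libraries lay above the facial libraries at E10.5 without overlap, and the olfactory pit stood between them and the earlier libraries. How many of all genes separated these E10.5 tissues in this way was not computed.

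Hmga2 did not share this pattern. Its levels were 2.68 in E8.5 mesoderm, 1.98, 2.69 and 1.14 in E8.5 neural epithelium, 2.10 to 2.52 in the 4 E9.5 libraries, and at E10.5 3.32, 5.22 and 4.47 in the lateral nasal prominence, mandibular and maxillary arches. The E10.5 neural libraries had 3.61 (lateral prominence), 3.46 (central) and 1.11 (dorsal control), the olfactory pit 2.05, and the library labelled medial nasal prominence was lowest of all at 1. The 3 highest facial values of Hmga2 were thus at E10.5, where the other 5 genes were lowest, and the neural libraries split.

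Igf2bp1 encodes an RNA-binding protein that protects and carries messages. Its level was 6.32 in E8.5 mesoderm, 6.85, 6.88 and 4.55 in E8.5 neural epithelium, and 5.26 to 6.13 in the 4 E9.5 libraries. At E10.5 it was 1.93, 1.44 and 1 in the lateral nasal prominence, mandibular and maxillary arches, 2.25, 2.20 and 3.01 in the 3 neural libraries, 3.69 in the olfactory pit and 6.78 for the library labelled medial nasal prominence. That last library alone reached the range of earlier stages. Its paralogues moved over smaller ranges, with highest levels of 2.33 for Igf2bp2 and 3.18 for Igf2bp3.

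**Figure D1:**
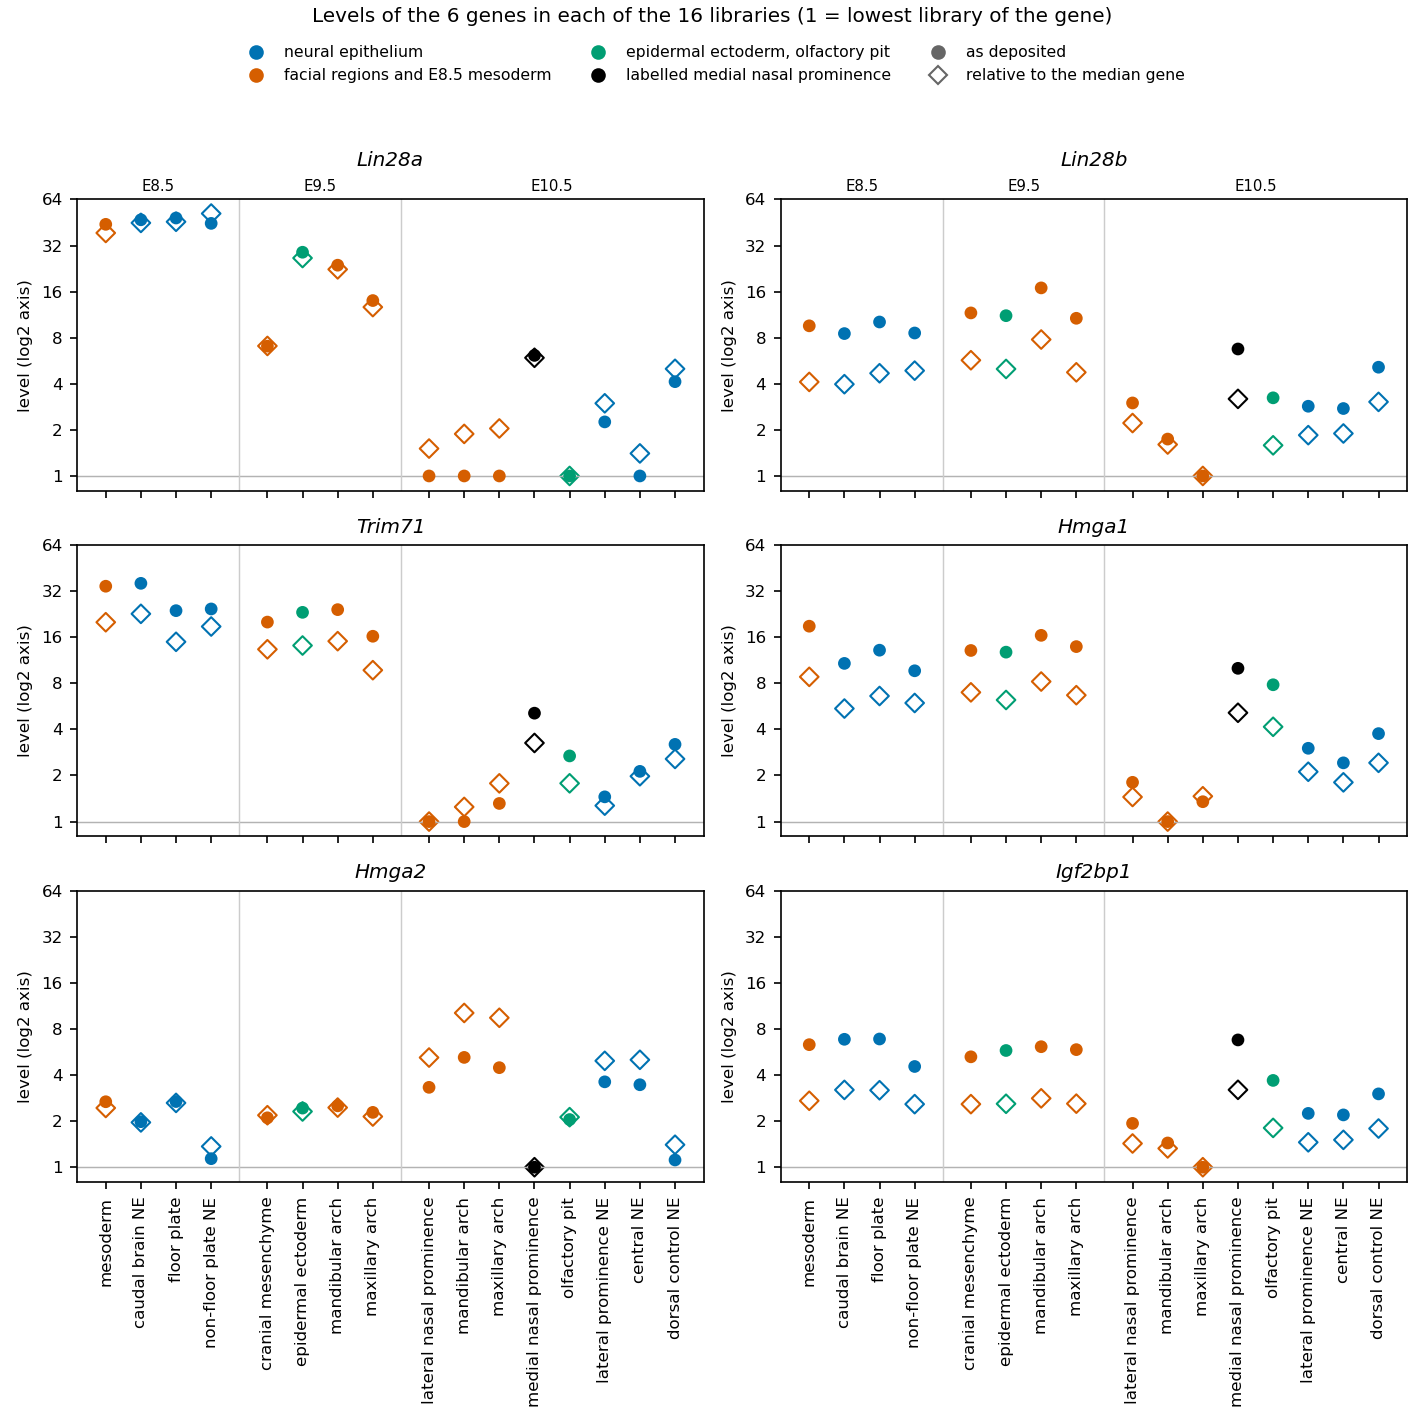
Level of each gene in the 16 libraries, on a log2 axis where 1 is the lowest library of the gene, with stages from left to right. Filled circles are values as deposited and open diamonds are relative to the median gene; Lin28a sits at 1 in 5 E10.5 libraries, and Hmga2 as deposited is highest in the E10.5 mandibular arch (5.22).

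Set against all 8 earlier libraries at once, Lin28a, Lin28b and Trim71 were lower in all 8 E10.5 libraries on both scales, and Hmga1 was lower in all 8 relative to the median gene. Over all 12851 genes tested, 0.934% lay wholly below in this way relative to the median gene and 2.51% as deposited. Without the library labelled medial nasal prominence, Igf2bp1 joined them on both scales and Hmga1 also as deposited, so 5 of the 6 genes lay below, against 1.44% of genes relative to the median gene and 4.47% as deposited. Relative to the median gene, the lowest earlier level was 1.30-fold above the highest of the 7 E10.5 libraries for Lin28b, 1.32-fold for Hmga1, 1.41-fold for Lin28a, 1.43-fold for Igf2bp1 and 3.80-fold for Trim71. In the olfactory pit taken alone, Lin28a, Lin28b, Trim71, Hmga1 and Igf2bp1 were all below every earlier library as deposited. In the library labelled medial nasal prominence taken alone, this held for Lin28a, Lin28b and Trim71. The share of all genes below in a single library was not computed, so these statements have no background beside them.

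The fall in neural epithelium was tested between E10.5 and E8.5, with 3 libraries each. Relative to the median gene, Lin28a, Trim71, Hmga1 and Lin28b fell, in that order of size, Igf2bp1 changed by less than the 2-fold asked, and Hmga2 did not pass. Lin28a averaged 2.46 ± 1.58 at E10.5 and 46.7 ± 1.9 at E8.5 as deposited, and the fitted log2 change relative to the median gene was -4.10 (95% interval -5.09 to -3.11), an adjusted p of 0.000445 in limma over all genes tested. Only 0.07% of genes had a lower change. Lin28a was at the floor in central neural epithelium, so the size of its change depends on that floor. Trim71, at 2.26 ± 0.88 in E10.5 and 28.1 ± 6.8 in E8.5 neural epithelium, changed by -3.32 (-4.13 to -2.50, limma adjusted p = 0.000447). Lin28a, Trim71, Hmga1, Lin28b and Igf2bp1 were each lower in 3 of 3 E10.5 libraries, with no overlap on either scale. The share of all genes without overlap between these groups was not computed, so this count has no background beside it.

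Hmga1 changed by -1.51 in neural epithelium (95% interval -2.19 to -0.84, limma adjusted p = 0.00702), with levels of 3.06 ± 0.67 at E10.5 and 11.2 ± 1.8 at E8.5. Lin28b changed by -1.03 (-1.76 to -0.30, limma adjusted p = 0.0488), close to both limits, and 13 of 21 alternative settings ended its call (limma adjusted p from 0.0204 to 0.127). Igf2bp1 changed by -0.91 (-1.38 to -0.45, limma adjusted p = 0.0130), and Hmga2 by 0.77 (-0.23 to 1.76, limma adjusted p = 0.245). Thus 4 of 6 genes passed as lower and none as higher, where 7.10% of all genes passed as lower and 7.00% as higher. As deposited 5 of 6 passed as lower, Igf2bp1 included (-1.28, limma adjusted p = 0.0109), against 12.8% of all genes. Without the dorsal control library, which held the highest E10.5 neural levels of Lin28a, Lin28b, Trim71, Hmga1 and Igf2bp1 and the lowest of Hmga2, the Hmga2 change was 1.38 and passed (limma adjusted p = 0.0176).

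Marker genes of other cells also differed between these neural groups. The mean log2 level of 6 neuron markers was 1.66 to 1.99 at E10.5 and 0.66 to 1.10 at E8.5, and 0 to 1 of them were at their lowest value at E10.5 and 3 to 4 at E8.5. For 6 erythroid markers the mean log2 level was 2.43 to 2.59 at E10.5 and 0.00 to 0.53 at E8.5. Their part in the results was not tested.

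In the face, the E10.5 facial regions were set against E8.5 mesoderm (1 library, assumed to vary like the other groups) and against the E9.5 facial mesenchyme regions. Lin28a was at its lowest value in all 3 E10.5 facial libraries, so the size of its fall is given as a lower bound. It was at least 44.0-fold lower than in E8.5 mesoderm as deposited and at least 18.9-fold lower relative to the median gene. Against the lowest E9.5 library, cranial mesenchyme, it was at least 7.05-fold lower as deposited and at least 3.46-fold lower relative to the median gene. It passed in both comparisons (limma adjusted p = 0.00780 against E8.5 and 0.00238 against E9.5).

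Against E8.5 mesoderm, Trim71 changed by -3.94 (95% interval -5.10 to -2.79, limma adjusted p = 0.00585), Hmga1 by -2.78 (-3.73 to -1.83, limma adjusted p = 0.00991) and Igf2bp1 by -1.13 (-1.79 to -0.48, limma adjusted p = 0.0403), all relative to the median gene. Trim71 was at the floor in 2 of the 3 E10.5 facial libraries, so the size of its change depends on that floor. Lin28b (-1.43, -2.46 to -0.40, limma adjusted p = 0.0672) and Hmga2 (1.70, 0.30 to 3.11, limma adjusted p = 0.0978) did not pass. The 4 of 6 genes called lower compare with 3.33% of all genes, and 6.66% of all genes were called higher. As deposited 5 of 6 were called lower, Lin28b too (-2.46, limma adjusted p = 0.0102), where 27.6% of all genes were. The call of Igf2bp1 was lost in 10 of 23 alternatives, among them the fit on the groups of the comparison alone and those without the mandibular or the maxillary arch of E10.5 (limma adjusted p from 0.00429 to 0.368). Lin28b passed without the lateral nasal prominence or without the dorsal control library, and without dorsal control Hmga2 did too (2.01, limma adjusted p = 0.0345). With the library labelled medial nasal prominence counted as facial, 2 genes were called lower in place of 4.

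Between E10.5 and E9.5, with 3 facial libraries each, 5 of 6 genes fell and Hmga2 rose. Relative to the median gene, Trim71 changed by -3.26 (95% interval -4.08 to -2.45, limma adjusted p = 0.000603), Hmga1 by -2.50 (-3.17 to -1.83, limma adjusted p = 0.000819), Lin28b by -1.96 (-2.69 to -1.24, limma adjusted p = 0.00294) and Igf2bp1 by -1.11 (-1.57 to -0.64, limma adjusted p = 0.00523). Background shares were 6.29% of genes called lower and 8.33% called higher. As deposited the same 5 genes were called lower, against 31.0% of all genes. The call of Igf2bp1 relative to the median gene was lost in 3 of 24 alternatives (limma adjusted p from 0.000425 to 0.138 over all of them). These were the fit without the E10.5 maxillary arch, where its change was -0.95 and under 2-fold, and 2 others. The others added the library labelled medial nasal prominence, or added 1 to each level before taking logs.

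Hmga2 averaged 4.34 ± 0.95 in E10.5 and 2.30 ± 0.21 in E9.5 facial regions (SD, n = 3 each), and all 3 E10.5 libraries were above all 3 E9.5 libraries. How many of all genes separated these stages in this way was not computed. The change of Hmga2 was 1.82 relative to the median gene (95% interval 0.82 to 2.81, limma adjusted p = 0.0134) and 0.89 as deposited (-0.09 to 1.88, limma adjusted p = 0.136). The call was lost as deposited, with the library labelled medial nasal prominence added, and without the E10.5 mandibular arch (1.64, limma adjusted p = 0.0503). It was also lost in a fit chosen after seeing the data, which paired the mandibular and maxillary arches alone by region across stages (2.10, limma adjusted p = 0.0513), while the other 5 genes kept theirs. The adjusted p of Hmga2 ran from 0.00277 to 0.296 over 24 alternatives, and its direction was the same in all of them.

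Markers of other cell types differed between the facial stages as well. The mean log2 level of 6 endothelium markers was 3.29 in E8.5 mesoderm, 2.40 to 2.69 in E9.5 facial mesenchyme regions and 1.24 to 1.46 in E10.5 facial regions, with 1 marker at its lowest value in each E10.5 library. For 6 mesoderm markers the means were 2.06 in E8.5 mesoderm, 1.39 to 1.78 at E9.5 and 0.46 to 1.03 at E10.5, where 3 to 4 were at their lowest value. For 6 erythroid markers they were 2.28 in E8.5 mesoderm, 4.79 to 7.59 at E9.5 and 4.46 to 6.28 at E10.5. The 10 facial mesenchyme markers were at 2.71, 3.04 to 3.14 and 2.96 to 3.65 at the same stages, with at most 1 at its lowest value. Their part in these changes was not tested.

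**Figure D2:**
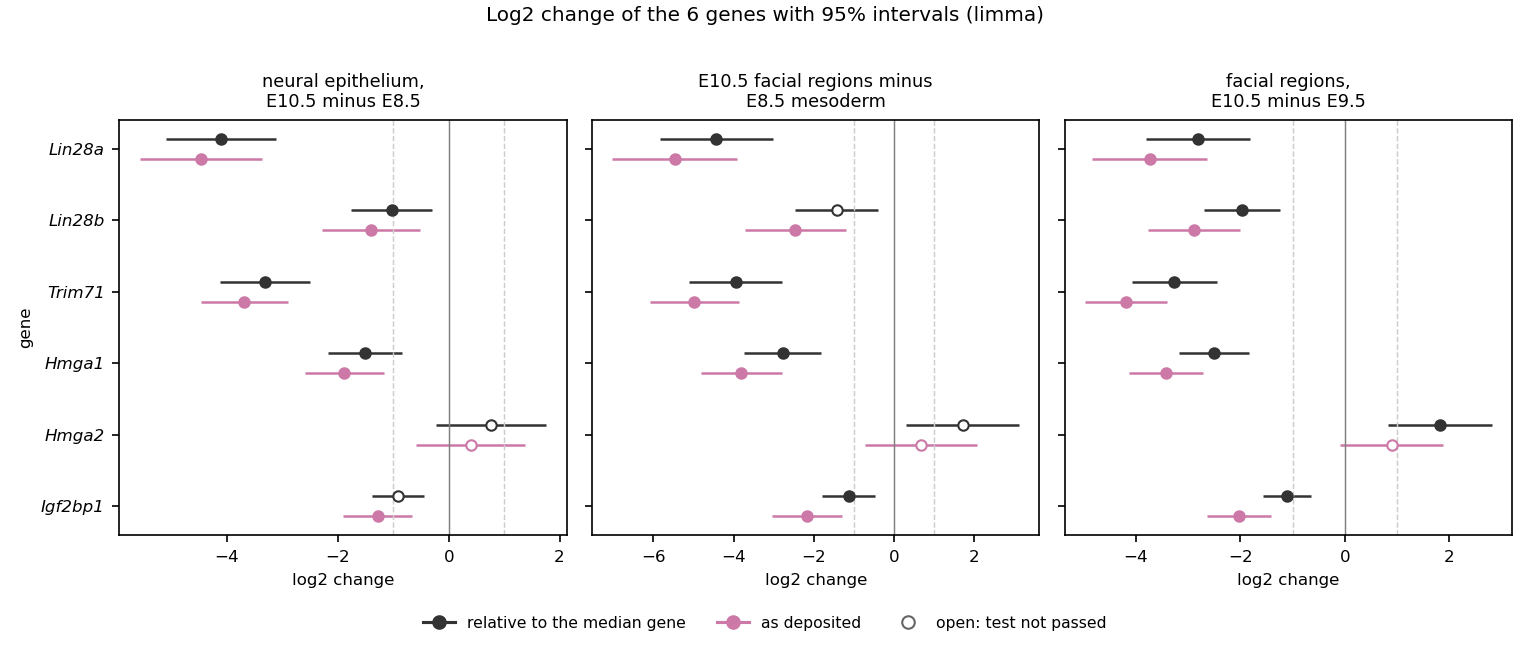
Log2 change of each gene with its 95% interval from limma in neural epithelium (E10.5 minus E8.5), in E10.5 facial regions minus E8.5 mesoderm, and in facial regions (E10.5 minus E9.5). Black is relative to the median gene, pink is as deposited, open points did not pass, and dashed lines mark 2-fold. Hmga2 is the only gene to the right of 0. Lin28a was at its lowest value in every E10.5 facial library and in central neural epithelium, so its points depend on the floor.

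Between the E9.5 facial mesenchyme regions and E8.5 mesoderm 0 of 6 genes passed in limma, and 0.0545% of all genes did in either direction. At an unadjusted p under 0.05 there was 1 gene, Lin28a, with levels of 7.05, 23.8 and 14.0 at E9.5 against 44.0 in mesoderm (log2 change -1.62, 95% interval -3.02 to -0.22, limma adjusted p = 0.865). For Hmga1 (-0.28, -1.23 to 0.67) and Igf2bp1 (-0.03, -0.69 to 0.63) the intervals reached no further than 1.23 from 0. Lin28b changed by 0.53 (-0.50 to 1.56, limma adjusted p = 0.993). With 1 library of mesoderm the comparison leaves wide intervals. Only that of Igf2bp1 lies within a 2-fold change either way, and that of Hmga1 includes a fall of more than 2-fold.

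Pairs of single libraries of the same region have no test. In the E10.5 mandibular arch Trim71 and Lin28a were at the floor, at least 12.1-fold and at least 11.9-fold lower than in the E9.5 mandibular arch relative to the median gene. The log2 differences of Hmga1, Lin28b and Igf2bp1 were -3.04, -2.28 and -1.09. In this pair 5 of 6 genes were 2-fold or more lower, against 10.7% of all genes. The maxillary arch gave the same 5, with Lin28a at least 6.21-fold lower and log2 differences of -2.46 for Trim71, -2.25 for Lin28b, -2.19 for Hmga1 and -1.38 for Igf2bp1, against 12.1% of genes. Hmga2 was higher in both E10.5 arches, by 2.05 in the mandibular and 2.14 in the maxillary pair, and 3.15% and 3.03% of genes differed further upward. Between the E10.5 olfactory pit and E9.5 epidermal ectoderm, 2 surface tissues, 3 of the 6 genes were 2-fold or more lower, where 5.40% of all genes were. These were Lin28a, at least 26.5-fold lower relative to the median gene, Trim71 (-2.99) and Lin28b (-1.66), while Hmga1 (-0.58), Igf2bp1 (-0.52) and Hmga2 (-0.12) differed by less. The mean log2 level of 7 surface epithelium markers was 3.87 in the pit and 3.68 in the ectoderm. That of 6 neuron markers was 3.87 in the pit and 1.28 in the ectoderm. Erythroid markers (6) were at 5.47 in the pit and 2.87 in the ectoderm, and facial mesenchyme markers (10) at 0.41 and 1.55. The part of such cells in these differences was not tested.

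Whether neural and facial tissue differed in the fall from E8.5 to E10.5 was tested directly. None of the 6 genes passed in limma, and 0.0156% of all genes did, which is 2 genes. Hmga1 was the 1 gene with an unadjusted p under 0.05. Its neural change minus its facial change was 1.26 (95% interval 0.10 to 2.43, limma adjusted p = 0.452), which places the smaller fall in neural epithelium. For Lin28a the difference was 0.32 (-1.39 to 2.04, limma adjusted p = 0.884), for Trim71 0.63 (-0.79 to 2.04, 0.699), for Lin28b 0.40 (-0.86 to 1.66, 0.795), for Igf2bp1 0.22 (-0.59 to 1.03, 0.828) and for Hmga2 -0.93 (-2.66 to 0.79, 0.631). As deposited the differences were larger for the 5 falling genes, 0.99 for Lin28a (-0.92 to 2.89, limma adjusted p = 0.560), 1.29 for Trim71 (-0.07 to 2.65, 0.274), 1.06 for Lin28b (-0.47 to 2.60, 0.425), 0.88 for Igf2bp1 (-0.19 to 1.95, 0.339) and 1.93 for Hmga1 (0.69 to 3.16, 0.108), and -0.27 for Hmga2 (-1.98 to 1.43, 0.874). None of the 6 passed on that scale either, where 194 genes, or 1.51% of all tested, did. These intervals do not show that the tissues fell alike, since differences of 2-fold lie within the interval of every gene.

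At E10.5 itself, neural epithelium minus facial regions gave 0 of 6 calls relative to the median gene, against 6.01% of all genes in either direction, with Hmga1 and Hmga2 the 2 genes at an unadjusted p under 0.05. Hmga1 was 3.06 ± 0.67 in neural epithelium and 1.38 ± 0.40 in facial regions, a difference of 0.71 (95% interval 0.04 to 1.38, limma adjusted p = 0.181) that passed as deposited (1.16, limma adjusted p = 0.0376), as 8.71% of all genes did as higher. Hmga2 was 2.73 ± 1.40 in neural epithelium and 4.34 ± 0.95 in facial regions (-1.28, -2.28 to -0.29, limma adjusted p = 0.114).

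**Figure D3:**
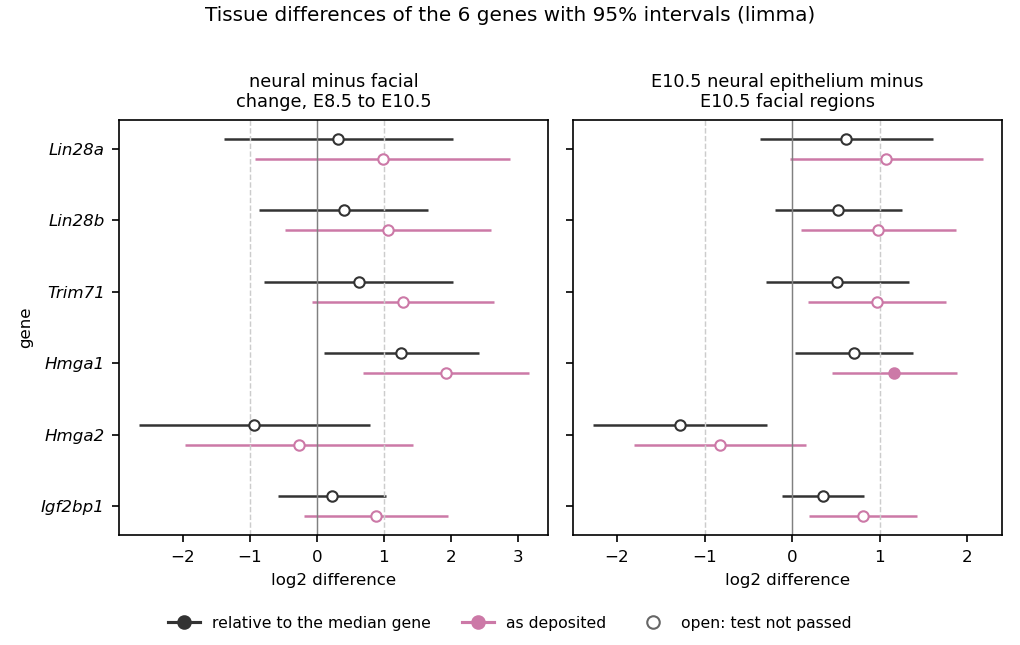
Difference between tissues for each gene with its 95% interval from limma. On the left is the neural minus the facial change from E8.5 to E10.5, on the right E10.5 neural epithelium minus E10.5 facial regions, in black relative to the median gene and in pink as deposited; Hmga1 as deposited on the right is the only filled point, the only one that passed.

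The other genes of the pathway were grouped in 6 lists with 69 of 90 genes measured. For the 28 let-7 targets of growth and the cell cycle, 4 fell and 2 rose in neural epithelium, where 7.10% of all genes fell and 7.00% rose, so the number that rose was near the background. Their median log2 change there was -0.16 beside 0.11 over all genes tested. Against E8.5 mesoderm 4 fell and 0 rose in the face, where 3.33% of all genes fell and 6.66% rose (median -0.11 beside 0.24). Against E9.5 5 fell and 0 rose, beside 6.29% and 8.33% of all genes (median -0.26 beside 0.23). As deposited 7 of 28 were lower in neural epithelium, 9 against E8.5 mesoderm and 16 against E9.5. The shares of all genes called lower were 12.8%, 27.6% and 31.0%, so the count against mesoderm was near the background. On that scale 1 was higher in neural epithelium and 0 in the face. Relative to the median gene, those that fell in neural epithelium were Nr6a1, Arid3b, Myc and Igf1r. In both facial comparisons they were Nr6a1, Arid3b, Arid3a and Cdc34, joined by Cdk6 against E9.5.

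Nr6a1 encodes germ cell nuclear factor, an orphan nuclear receptor that shuts down pluripotency genes. Its levels in E10.5 neural epithelium were 1.40, 3.68 and 1.44, against 46.0, 38.7 and 40.1 in E8.5 neural epithelium, a log2 change of -4.04 (95% interval -4.95 to -3.13, limma adjusted p = 0.000301). In E10.5 facial regions it was at 1.30, 1 and 1, against 21.6 in E8.5 mesoderm and 9.44, 12.3 and 5.39 at E9.5 (-3.27, limma adjusted p = 0.0168, and -2.05, limma adjusted p = 0.00611). It was at the floor in both E10.5 arches, so the sizes of these facial changes depend on that floor, and the call against E9.5 was lost with the arches paired by region (-1.94, limma adjusted p = 0.0509). Its 3′ UTR held 8 matches to the let-7 seed. As deposited, no E10.5 library reached the lowest earlier library, the E9.5 maxillary arch (5.39), as was so for 2.51% of all genes. Relative to the median gene, central neural epithelium at E10.5 lay above that arch, so the stages overlapped.

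Cdc34, a ubiquitin-conjugating enzyme, changed in facial regions by -2.24 against E8.5 mesoderm and by -2.13 against E9.5 (limma adjusted p = 0.0352 and 0.00380). Arid3a, a DNA-binding protein of the ARID family, changed by -1.71 and -1.65 in the same comparisons (limma adjusted p = 0.0411 and 0.00570). The calls of Cdc34 and Arid3a against the single mesoderm library were lost under 5 and 10 of 23 alternatives, leaving out the E10.5 mandibular arch among them. The related Arid3b fell against E8.5 in both tissues, by 1.65 in neural epithelium and 2.14 in the face on the log2 scale (limma adjusted p = 0.00474 and 0.0214). Cdk6, a kinase of the cell cycle, changed in both directions. It rose in neural epithelium, to levels of 2.41, 4.2 and 7.47 at E10.5 against 1.24, 1 and 1 at E8.5 (2.35, limma adjusted p = 0.00264), fell in facial regions between E10.5 and E9.5 (-1.54, limma adjusted p = 0.0124, lost without the E9.5 mandibular arch and with the arches paired by region) and was higher in neural than in facial tissue at E10.5 (1.44, limma adjusted p = 0.0422). Myc fell in neural epithelium by 2.65 (limma adjusted p = 0.0132), with levels of 2.28, 1 and 4.88 at E10.5 against 23.3, 23.8 and 10.6 at E8.5, and at E10.5 it was lower in neural than in facial tissue (-2.71, limma adjusted p = 0.0242). These E10.5 differences of Cdk6 and Myc were lost under 14 and 7 of 23 alternatives, among them those without the lateral nasal prominence, the maxillary arch or central neural epithelium. Igf2bp2 and Igf2bp3 passed in none of the 6 comparisons, with changes between -0.50 and 0.27 in the 3 stage comparisons named above.

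A list of 5 genes linked to LIN28 or to the processing or decay of let-7 precursors held Zcchc11, Zcchc6, Dis3l2, Dhx9 and Papd4. Of these, 2 rose in each of the 3 comparisons and 0 fell, relative to the median gene, where 7.00%, 6.66% and 8.33% of all genes rose. The 2 were the terminal uridylyl transferases Zcchc11 (TUT4) and Zcchc6 (TUT7). In neural epithelium they changed by 1.13 and 1.28 (limma adjusted p = 0.0333 and 0.00179), against E8.5 mesoderm by 2.15 and 1.40 (0.0268 and 0.0190), and against E9.5 by 1.55 and 1.59 (0.00711 and 0.000753). As deposited 0 of the 5 passed as higher, so these calls rest on removing the shift. Among 14 genes of microRNA biogenesis, 1 fell in all 3 comparisons and 2 rose, both in neural epithelium. With 7.10%, 3.33% and 6.29% of all genes called lower, 1 of 14 was near the background in neural epithelium and against E9.5. The one that fell was Khsrp, which binds let-7 precursors and promotes their processing, with changes of -1.19, -1.60 and -1.47 (limma adjusted p = 0.0176, 0.0392 and 0.00611). Its call against mesoderm was lost under 8 of 23 alternatives, leaving out the E10.5 mandibular or maxillary arch among them. Ago1 and Ago3, Argonaute proteins that hold microRNAs, rose in neural epithelium (1.25 and 1.14, limma adjusted p = 0.00270 and 0.0148). As deposited 0 of the 14 passed as higher there, so these 2 calls also rest on removing the shift. Ago1 was also higher in E10.5 neural epithelium (4.68, 6.28 and 6.01) than in E10.5 facial regions (1.63, 1.03 and 1), by 1.78 (limma adjusted p = 0.000621).

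Among early embryonic genes, 6 were measured and 5 entered the fit. In neural epithelium 3 of them fell and 0 rose, where 7.10% of all genes fell and 7.00% rose. These were Sall4, a zinc finger factor of early embryos (levels of 1.69, 2.61 and 2.78 at E10.5 against 11.6, 19.8 and 15.1 at E8.5, change -2.34, limma adjusted p = 0.000788), Dnmt3b, a DNA methyltransferase that sets new marks (-2.25, limma adjusted p = 0.000301), and Eras. Eras, a Ras-like gene of embryonic stem cells, was at its lowest value in all E10.5 neural libraries and at 1.31, 27.4 and 28.5 at E8.5, and 13 of 20 alternatives ended its call. Dnmt3b also fell in facial regions against E8.5 mesoderm (-1.50, limma adjusted p = 0.0268). Sall4 also fell in facial regions between E10.5 and E9.5 (-1.51, limma adjusted p = 0.00538), a call lost with the arches paired by region (-1.28, limma adjusted p = 0.0527). Tfap2c passed as higher there relative to the median gene, with levels of 1.09, 1 and 1.25 at E10.5 and 1 in all 3 libraries at E9.5, so both groups were at or near the floor.

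Of 8 late timing genes and let-7 host transcripts, 6 entered the fit and 4 rose in neural epithelium relative to the median gene, where 7.00% of all genes rose and the median change was 2.26 beside 0.11 over all genes tested. As deposited 2 of the 6 rose, beside 2.85% of all genes. The 4 were Nfia, Nfib, Sox9 and Zbtb20, and neither fitted let-7 host transcript, Wdr82 or Huwe1, passed in neural epithelium. Mean levels of Wdr82 as deposited were 1.90 in E10.5 and 2.28 in E8.5 neural epithelium. In the face they were 1.40 in E10.5 facial regions and 4.22 in E9.5 facial mesenchyme regions. Nfia and Nfib, nuclear factor I transcription factors of later progenitors, were at 1 in all 3 E8.5 neural libraries, so the sizes of their neural changes depend on the floor. At E10.5 Nfib was at 5.47, 8.98 and 11.7 and Nfia at 1.83, 2.64 and 17.6 in neural epithelium, and Nfib was at 11.6, 7.21 and 6.81 in facial regions, against 1.37 in E8.5 mesoderm (limma adjusted p = 0.00759). Both also rose in the face between E10.5 and E9.5 (2.62 for Nfia and 2.44 for Nfib, limma adjusted p = 0.0167 and 0.00171). Sox9, an HMG-box factor, rose in neural epithelium, to 6.70, 3.59 and 28.4 against 1, 1.26 and 1.74 (3.13, limma adjusted p = 0.00526), and Zbtb20, a zinc finger factor, rose as well. Zbtb20 has 2 rows in the files. The list counted the first (ENSMUSG00000022708), which changed by 2.02 (limma adjusted p = 0.0336), and the other (ENSMUSG00000036279) changed by 4.03 (limma adjusted p = 0.000290). The other row also passed as higher in both facial comparisons (2.78 against E8.5 mesoderm and 2.67 against E9.5, limma adjusted p = 0.0226 and 0.00179), where the first did not pass. The neural call of Nfia was lost under 5 of 21 alternatives, among them each that left out 1 E8.5 library, and its facial call against E9.5 under 6 of 24, as deposited and without the E10.5 maxillary arch among them. Relative to the median gene, Tox was the 1 of 8 other HMG-box and HMG chromatin genes to pass. It rose in neural epithelium (2.89, limma adjusted p = 0.00674) and against E8.5 mesoderm (2.92, limma adjusted p = 0.0453), where 13 of 23 alternatives ended the call. Over all genes 7.00% and 6.66% were called higher in these comparisons. As deposited 1 of the 8 was higher in neural epithelium, beside 2.85% of all genes. On that scale 1 was lower in each facial comparison, beside 27.6% and 31.0% of all genes. The only let-7 loci measured, Mirlet7d and Mirlet7g, were at or within 1.05 of their lowest value in all libraries, and mature let-7 was not measured.

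**Figure D4:**
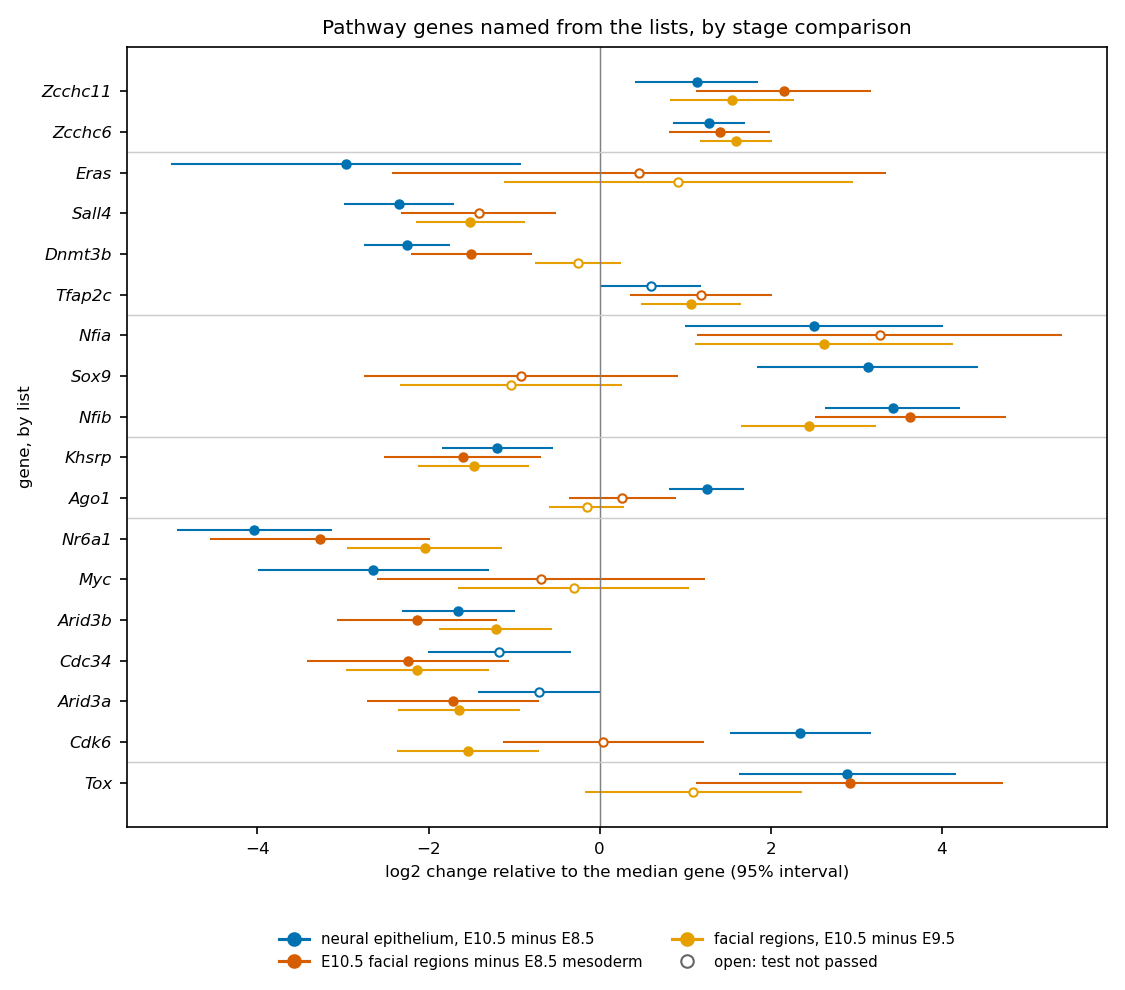
Log2 change relative to the median gene, with 95% intervals from limma, of the pathway genes named from the lists, in neural epithelium (E10.5 minus E8.5), in E10.5 facial regions minus E8.5 mesoderm, and in facial regions (E10.5 minus E9.5). Grey lines separate the lists and open points did not pass; Nr6a1 lies to the left in all 3 comparisons (-4.04, -3.27 and -2.05), and Nfib, Zcchc11 and Zcchc6 to the right. Nr6a1 was at the floor in 2 of 3 E10.5 facial libraries.

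Over the 16 libraries, which share stage and library shift, the 5 falling genes resembled each other. As a description with no test, Pearson's r of values relative to the median gene was highest between Lin28a and Trim71 (0.94) and between Hmga1 and Igf2bp1 (0.91), and lowest between Lin28a and Hmga1 (0.79). With Hmga2 it was negative for all 5, from -0.54 with Lin28a to -0.80 with Igf2bp1. The 5 genes outside the set most like each member were also found. For Lin28a they were Gm10299, Pabpc1, Slc16a3, Prtg and Ipo5 (r of 0.97 to 0.90), where Pabpc1 encodes a poly(A)-binding protein and Prtg protogenin, a receptor of early neural and mesodermal tissue. For Trim71 they were Gm10299, Cherp, Cirh1a, Slc16a1 and Eif1a (0.96 to 0.93), and for Lin28b Pa2g4, Gcsh, Smyd5, Ppat and Pprc1 (0.96 to 0.92). Hmga1 was most like Pfn1, which encodes the actin-binding profilin, and then Pabpc4, Psmb2, 0610031J06Rik and Pcbp1 (0.97 to 0.95). Igf2bp1 was most like Arf3, Khsrp, Haus2, Pkm and Ugcg (0.93 to 0.91), and Hmga2 like Qser1, Tmem131, mt-Tl1, Rock1 and Wdr48 (0.95 to 0.92).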

How the data were processed

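RNA from 16 libraries was purified with a Zymo ZR RNA MicroPrep kit and read as 50-base single-end reads, per the labels. The submitters' processing notes name Bowtie, TopHat, TopHat2, Cufflinks and mm9; no version and no strand setting is stated there. The deposited values are a ratio of each gene to its median over the libraries, with low values at a shared floor, as the values themselves show; the unit before division is not stated.

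Genes above their lowest value in at least 3 libraries (12851) entered 1 limma fit (3.58.1, R 4.3.3, mean-variance trend) on log2 ratios with 8 groups. Each library was centred on the median of 7082 genes whose lowest value is not shared. Calls needed a Benjamini-Hochberg adjusted p under 0.05 and 2-fold. A test on simulated data was run first. The groups hold different regions, so p-values measure spread between regions. The titles and the headers name the central and dorsal control neural libraries the other way round; both are in 1 group, and the names used here follow the titles. Members and lists were chosen with earlier results of these data known. Named list genes were those that passed, at most 5 per direction and comparison by size, plus Igf2bp2 and Igf2bp3; for likeness, the 5 with the highest Pearson r. Other list genes that passed, such as Ago1, Ago3, Igf1r and Zbtb20 in neural epithelium, were named after their values were seen, and some genes are not reported here. Without strand, reads of genes that overlap cannot be told apart: by the GENCODE annotation Lin28a, Trim71, Hmga1, Hmga2 and Igf2bp1 each overlap another gene on the other strand.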

Additional observations from a re-analysis of the deposited data

How the results depend on the processing

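The 6 genes had 816 values of log2 change under alternative settings, of which 772 kept their direction and their side of the threshold, 31 lost a call, 10 gained one and 3 changed sign. The 3 were changes in the neural minus facial difference, none past the threshold: -0.11 for Lin28a and -0.12 for Igf2bp1 with the library labelled medial nasal prominence counted as facial, and -0.11 for Lin28a without dorsal control neural epithelium (-0.11 to 0.81 with 1 library left out at a time). At 3-fold, 2 of the genes were lower in neural epithelium in place of 4. Counting the medial nasal library as facial left 2 lower against E8.5 mesoderm in place of 4, and 0 higher against E9.5 in place of 1. As deposited, 0 were higher against E9.5 in place of 1, and 1 was higher in E10.5 neural than facial tissue in place of 0. With 1 library left out at a time, the number lower was 3 to 5 in neural epithelium and against E8.5 mesoderm and 4 to 5 against E9.5, and the number higher was 0 to 1 in all 3. Over all genes, calls moved more: from 274 to 3984 lower and from 144 to 2503 higher against E9.5 (808 and 1071 as reported), from 21 to 3548 lower and 25 to 3987 higher against E8.5 mesoderm (428 and 856), from 425 to 1648 lower and 338 to 1374 higher in neural epithelium (913 and 900), from 4 to 632 lower and 10 to 1119 higher between E10.5 tissues (417 and 355), from 0 to 21 lower and 0 to 6 higher between E9.5 and E8.5 (3 and 4), and from 0 to 18 lower and 0 to 190 higher for the difference in fall (1 and 1). The causes were not tested. Of the 5 genes most like each member, 0 to 4 were shared when ranks replaced Pearson's r, and 1 to 4 on values as deposited. The labels give no replicate numbers, but the mandibular and maxillary arches are named at both E9.5 and E10.5. With these 4 libraries paired by region as a replicate block, a fit chosen after seeing the data, 5 of the 6 genes were lower and 0 higher in place of 1, and over all genes 472 were lower in place of 808 and 1249 higher in place of 1071. The same 4 libraries without the block gave 5 lower and 1 higher. No other comparison names the same region at 2 stages. Limits: each region and stage has 1 library, E8.5 mesoderm is 1 library, the floor hides differences among low values, and depth per library is unknown.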
